A study of Arabidopsis thaliana with 6 samples.

Results

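A set of 10 genes of flavonoid metabolism were examined in closed flower buds of Arabidopsis thaliana: the enzymes CHS, CHI, F3H, F3'H, FLS1, DFR and LDOX and the transcription factors MYB11, MYB12 and MYB111. They were taken by gene identifier and make up 10 of the 33037 features in the count table. The study sequenced total RNA from closed buds of wild-type plants (3 libraries) and of naa50-1 plants (3 libraries), described as biological replicates. The labels give genotype and tissue, and give neither the accession of the plants, their age, the number of plants per library nor the lesion in naa50-1. NAA50 encodes an amino-terminal protein acetyltransferase, and the series title concerns tapetum breakdown. The NAA50 transcript was higher in the libraries labelled naa50-1, at 2429, 2520.2 and 2973 FPKM against 27.3, 27.1 and 23.2 FPKM (log2 fold change 6.67, adjusted p = 6.5e-08), so every direction below is that of the libraries labelled naa50-1. FPKM is the fragment count scaled by gene length and by sequencing depth, here on the scale the authors deposited.

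Flavonoids are built from a phenylpropanoid thioester and malonyl-CoA. CHS and CHI make the flavanone, F3H turns it into a dihydroflavonol and F3'H adds a hydroxyl group to its side ring. At that point the pathway divides: FLS1 oxidises dihydroflavonols to flavonols, which accumulate in anthers and pollen, while DFR and then LDOX lead to the anthocyanidins that become anthocyanin pigments and the proanthocyanidins of the seed coat. In Arabidopsis seedlings MYB11, MYB12 and MYB111 activate the early genes and FLS1, whereas DFR and LDOX are activated mainly by complexes of a MYB, a bHLH and the WD-repeat protein TTG1.

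The stretches of 250 bases upstream of the annotated starts are shown for 4 members, because they stand for both branches: CHS opens the pathway, FLS1 leads to flavonols, and DFR and LDOX lead to anthocyanidins. The bases are from the RefSeq TAIR10.1 assembly and run 5′ to 3′ on the strand of the gene, and capitals mark ACGT, a core of sites bound by bZIP and some bHLH factors. CHS lies on the plus strand (window chr5:4488226-4488475), FLS1 on the plus strand (chr5:2803583-2803832), DFR on the minus strand (chr5:17166033-17166282) and LDOX on the minus strand (chr4:12006210-12006459).
CHS: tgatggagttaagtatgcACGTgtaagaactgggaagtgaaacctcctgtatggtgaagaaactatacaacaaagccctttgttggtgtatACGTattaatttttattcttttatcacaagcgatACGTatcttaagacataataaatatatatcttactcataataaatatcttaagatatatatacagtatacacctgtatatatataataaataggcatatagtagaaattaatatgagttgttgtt
FLS1: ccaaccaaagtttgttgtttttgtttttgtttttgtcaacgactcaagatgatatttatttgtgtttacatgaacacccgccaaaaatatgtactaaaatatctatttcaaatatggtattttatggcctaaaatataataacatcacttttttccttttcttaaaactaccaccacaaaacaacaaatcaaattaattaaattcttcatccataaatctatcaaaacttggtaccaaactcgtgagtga
DFR: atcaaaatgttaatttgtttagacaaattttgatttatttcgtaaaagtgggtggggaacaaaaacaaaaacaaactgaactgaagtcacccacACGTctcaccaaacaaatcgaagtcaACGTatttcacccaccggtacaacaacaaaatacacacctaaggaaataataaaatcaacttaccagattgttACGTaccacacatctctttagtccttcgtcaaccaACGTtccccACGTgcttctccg
LDOX: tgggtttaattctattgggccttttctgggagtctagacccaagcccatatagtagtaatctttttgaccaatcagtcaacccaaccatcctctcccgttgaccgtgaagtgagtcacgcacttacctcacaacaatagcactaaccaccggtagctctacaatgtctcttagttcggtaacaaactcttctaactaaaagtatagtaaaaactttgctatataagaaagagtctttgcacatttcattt

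DFR held 5 matches to ACGT, starting 156, 130, 57, 22 and 13 bases before the annotated start, and CHS held 3, at 232, 159 and 125 bases. FLS1 and LDOX held none. Among the other members, F3H held 5, MYB12 held 2, MYB11 and MYB111 held 1 each, and CHI and F3'H held 0. The letters occur in 44.1% of the 27419 upstream windows of the same length. Of the letters CANNTG, found in 55.3% of windows, MYB11 held 3 matches and CHS, CHI, F3H and MYB12 held 2 each. DFR, F3'H and MYB111 held 1 each, and FLS1 and LDOX held 0. The matches at 233 in CHS, 14 in DFR, 249 in F3H and 118 in MYB12 overlap an ACGT match, since all read CACGTG. The AC elements bound by MYB factors were searched on both strands: ACCTACC is in 1.16% of all windows, ACCAACC in 2.69% and ACCTAAC in 2.47%. None of the 10 windows held any of them, against 6.12% of all windows. These are matches of letters, and no binding was measured.

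The library totals ran from 19727584 to 20813563 counts. Genotypes were compared gene by gene with edgeR's quasi-likelihood test on 21196 genes that passed a filter on low counts, and a gene is said to have changed where its Benjamini-Hochberg adjusted p over all of them was under 0.05. That held for 2021 genes (9.53%), of which 836 were higher (3.94%) and 1185 lower (5.59%) in naa50-1. Of the 10 members, 9 passed the filter. DFR and LDOX rose, 0 members fell by edgeR, and the other 7 did not pass the threshold. At an unadjusted p under 0.05 the test gave the same 2 genes, both higher, and 0 lower. How many of all tested genes lay under that p was not computed. Counts at an unadjusted p, here and below, are therefore not read as a trait of the members or lists. DESeq2 called the same 2 genes, and limma-voom called LDOX alone. The median log2 fold change was 0.12 over the 9 members, 5 of them above 0, and -0.01 over all tested genes.

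**Figure D1:**
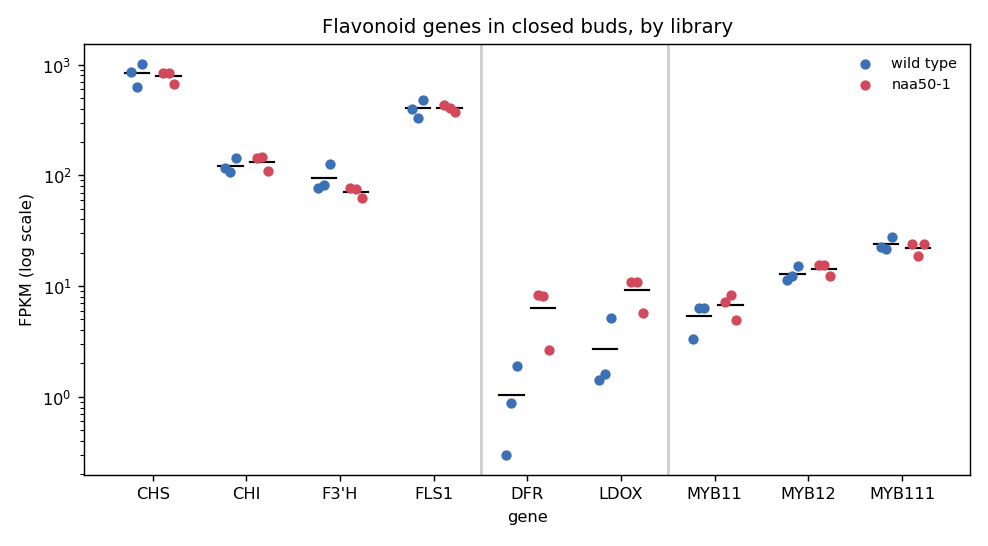
Deposited FPKM of the 9 tested members in each library, on a log axis, with points for the 3 wild-type (blue) and 3 naa50-1 (red) libraries and black lines at the group means. DFR and LDOX lie higher in every naa50-1 library than in any wild-type library, while the CHS, CHI, FLS1 and MYB points of the genotypes overlap.

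The early and flavonol enzymes were the most abundant members. CHS (AT5G13930, TAIR10 chromosome 5, 4488476 to 4490264, plus strand, 2 exons), which makes the chalcone scaffold, stood at 851, 625 and 1024 FPKM in wild type replicates 1 to 3 and at 847, 837 and 671 FPKM in naa50-1 replicates 1 to 3. The ranges overlapped, with the highest and the lowest library both wild type. Its log2 fold change was -0.09 (95% interval -0.53 to 0.35, adjusted p = 0.884). FLS1 (AT5G08640, chromosome 5, 2803833 to 2805606, plus strand, 3 exons), the flavonol synthase, measured 402, 328 and 480.4 FPKM in the wild type and 429.8, 404 and 373 FPKM in naa50-1. All 3 naa50-1 values fell inside the wild-type range. The log2 fold change of FLS1 was -0.01 (-0.36 to 0.34, adjusted p = 0.991).

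CHI (AT3G55120, chromosome 3, 20430059 to 20431597, minus strand, 4 exons) closes the chalcone into a flavanone. Its wild-type libraries gave 117, 108 and 143 FPKM and its naa50-1 libraries 144, 147 and 109 FPKM. A pair of naa50-1 libraries exceeded the wild type and the other lay near its lowest value, with a log2 fold change of 0.12 (-0.22 to 0.45, adjusted p = 0.767). F3'H (AT5G07990, chromosome 5, 2560328 to 2563137, plus strand, 4 exons), a cytochrome P450 that sets the number of hydroxyl groups on the side ring, was at 76.7, 81.8 and 127 FPKM in the wild type and at 76.4, 74.6 and 62.9 FPKM in naa50-1. The groups did not overlap, but only narrowly: the lowest wild-type and the highest naa50-1 library differed by less than 1 FPKM. Its log2 fold change of -0.42 (-0.84 to 0.0008) gave an adjusted p of 0.261. None of these 4 enzymes passed in edgeR, DESeq2 or limma-voom, and 0 had an unadjusted edgeR p under 0.05. F3'H came close, with an unadjusted p of 0.0503 in edgeR and 0.0297 in DESeq2 (adjusted p = 0.187). Over the 14 alternative settings its log2 fold change ran from -0.56 to -0.16, with 0 calls.

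The enzymes of the anthocyanidin branch, DFR and LDOX, were much less abundant and both rose. DFR (AT5G42800, chromosome 5, 17164093 to 17166032, minus strand, 6 exons), which reduces dihydroflavonols to leucoanthocyanidins, was counted 9, 28 and 57 times in the wild type and 254, 260 and 83 times in naa50-1. In FPKM these are 0.297, 0.886 and 1.91 against 8.33, 8.07 and 2.65. Every naa50-1 library lay above every wild-type library, but naa50-1 replicate 3 was much nearer to wild type replicate 3 than to the other naa50-1 libraries. The group means were 1.03 ± 0.815 and 6.35 ± 3.21 FPKM (SD, n = 3 each), a 6.16-fold difference. The fitted log2 fold change was 2.62 (SE 0.59, 95% interval 1.302 to 3.93, adjusted p = 0.0188). DFR no longer passed with wild type replicate 2 left out (adjusted p = 0.0680) or with naa50-1 replicate 1 left out (adjusted p = 0.0535), and its log2 fold change was 3.40 with wild type replicate 3 left out.

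LDOX (AT4G22880, chromosome 4, 12004726 to 12006209, minus strand, 2 exons), which oxidises leucoanthocyanidins to anthocyanidins, was counted 40, 47 and 141 times in the wild type and 304, 322 and 166 times in naa50-1. Its FPKM were 1.43, 1.62 and 5.12 against 10.8, 10.8 and 5.76. Again the groups did not overlap, and the replicates numbered 3 were the closest across genotypes, at 5.12 and 5.76 FPKM. Means were 2.72 ± 2.08 and 9.14 ± 2.93 FPKM (SD, n = 3 each), a 3.36-fold difference, with a log2 fold change of 1.75 (SE 0.46, 0.72 to 2.77, adjusted p = 0.0400). LDOX no longer passed once wild type replicate 1 (adjusted p = 0.121), wild type replicate 2 (0.116), naa50-1 replicate 1 (0.101) or naa50-1 replicate 2 (0.0975) was left out, and its log2 fold change was 2.58 with wild type replicate 3 left out. Reads may be shared with the neighbouring gene AT4G22870, which matches LDOX at 96.2% identity over 364 bases. That gene measured 3.13, 2.005 and 2.02 FPKM in the wild type and 6.61, 7.24 and 4.78 FPKM in naa50-1 (log2 fold change 1.37, adjusted p = 0.0213), again without overlap. AT4G22870 did not pass once wild type replicate 2 (adjusted p = 0.0634), wild type replicate 3 (0.0866), naa50-1 replicate 1 (0.0647) or naa50-1 replicate 2 (0.0778) was left out. In the authors' deposited table DFR has a log2 fold change of 2.62 with adjusted p 0.019 and LDOX one of 1.75 with adjusted p 0.00058.

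Non-overlapping FPKM between genotypes was seen for 3 of the 9 tested members (F3'H, DFR and LDOX), against 24.9% of all tested genes, so the count alone is near the background.

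**Figure D2:**
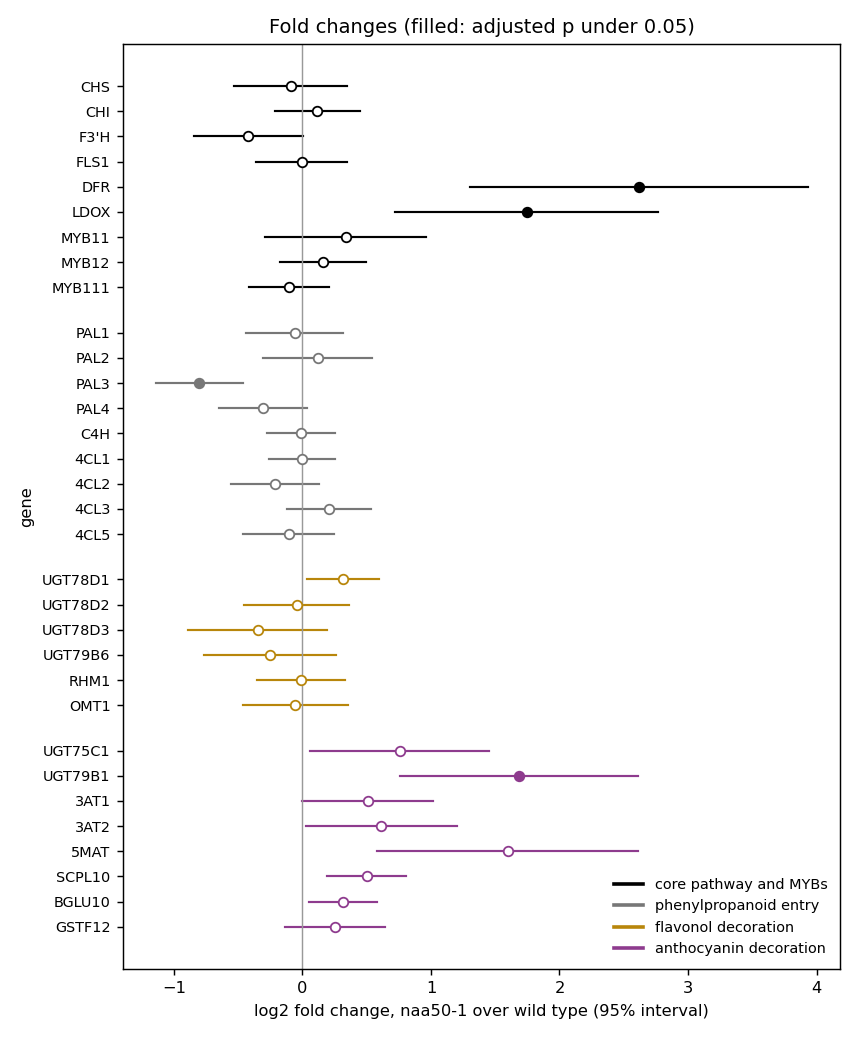
Log2 fold change of naa50-1 over wild type with its 95% interval from edgeR for the tested members and for 3 wider groups of the pathway, where filled points have an adjusted p under 0.05. DFR, LDOX and UGT79B1 are filled on the right, PAL3 is filled on the left, and all 8 anthocyanin decoration genes lie right of 0.

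Transcripts of the branches were compared as the FPKM of each anthocyanidin enzyme in percent of FLS1 in the same library, which cancels library scaling. The ratios use the same DFR and LDOX values as above and are not separate evidence. Enzyme activities and metabolites were not measured. DFR amounted to 0.0738%, 0.270% and 0.397% of FLS1 in the wild type and to 1.94%, 1.995% and 0.710% in naa50-1. LDOX amounted to 0.356%, 0.492% and 1.07% in the wild type and to 2.52%, 2.68% and 1.54% in naa50-1. Both ratios were higher in all 3 naa50-1 libraries than in any wild-type library, and FLS1 remained by far the more abundant transcript in all 6 libraries. On the log2 scale the difference in means was 2.81 for DFR (7.03-fold) and 1.93 for LDOX (3.82-fold). Each had a two-sided exact permutation p of 0.1, the smallest that 3 against 3 libraries allow, so this test could not reach 0.05.

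**Figure D3:**
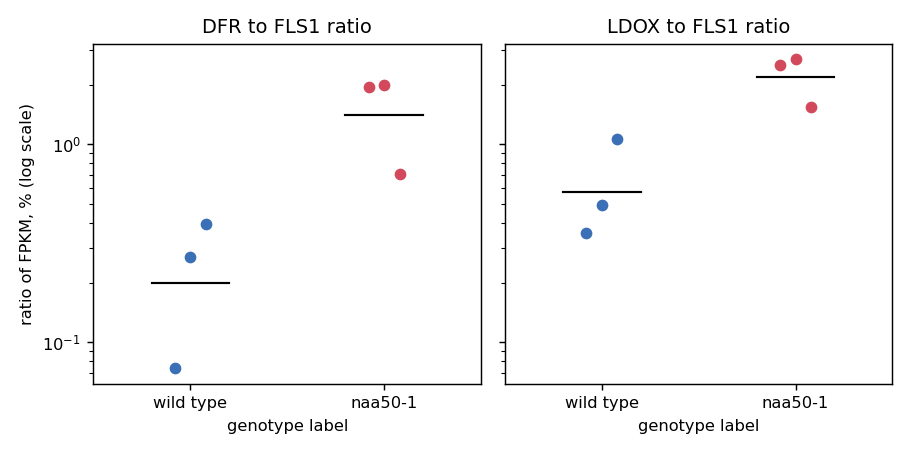
FPKM of DFR (left) and LDOX (right) in percent of FLS1 in the same library, on a log axis, with 1 point per library and black lines at the mean of the log ratios. The naa50-1 libraries lie above the wild-type libraries in both panels, from 0.710% upwards for DFR and from 1.54% upwards for LDOX.

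None of the MYB activators of flavonol synthesis passed the threshold. MYB111 (AT5G49330, chromosome 5, 19998823 to 20001572, minus strand, 3 exons) was the most abundant, at 22.3, 21.4 and 27.8 FPKM in the wild type and 24.2, 18.7 and 23.8 FPKM in naa50-1. Its ranges overlapped, with a log2 fold change of -0.10 (-0.41 to 0.21, adjusted p = 0.778). MYB12 (AT2G47460, chromosome 2, 19476326 to 19479597, plus strand, 3 exons), which acts mainly in roots in seedlings, gave 11.2, 12.2 and 15.1 FPKM against 15.5, 15.4 and 12.4 FPKM. Wild type replicate 3 lay inside the naa50-1 range, and the log2 fold change was 0.16 (-0.17 to 0.49, adjusted p = 0.670). MYB11 (AT3G62610, chromosome 3, 23154630 to 23156585, plus strand, 3 exons) was the lowest, with 3.35, 6.37 and 6.29 FPKM in the wild type and 7.18, 8.24 and 4.91 FPKM in naa50-1. The groups overlapped and the interval was wide (log2 fold change 0.34, -0.29 to 0.96, adjusted p = 0.611). Of its exon bases, 110 are shared with AT3G62615 on the other strand. DESeq2 and limma-voom also called 0 of these 3 genes, and 0 had an unadjusted edgeR p under 0.05.

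F3H (AT3G51240, chromosome 3, 19025192 to 19026872, plus strand, 3 exons) stood apart from its pathway neighbours. It was counted 3, 6 and 0 times in the wild type and 2, 1 and 8 times in naa50-1, 20 counts in all 6 libraries, and did not pass the filter, whereas CHS and FLS1 on either side of it in the pathway were among the abundant transcripts. The reference annotates a long non-coding RNA gene, AT3G51238, on the minus strand over it: 1415 of the 1508 F3H exon bases (93.8%) are shared and 93 are not. AT3G51238 itself was counted 0, 0 and 2 times in the wild type and 1, 1 and 0 times in naa50-1. Low counts were the rule for such genes. Among the 522 protein-coding genes with over 90% of their exon bases shared with a gene on the other strand, 98.9% had a mean under 10 counts and the median mean count was 0. Among the 20751 without such overlap, 26.8% had a mean under 10 counts and the median was 183. How reads over 2 genes were counted is not given in the sources used here, and the part of the overlap in the F3H counts was not tested. The F3H counts are therefore not read as the level of its transcript. UGT73C6 and UGT89C1, glycosyltransferases of flavonols, were also at 0 counts in all 6 libraries, and 100% and 99.6% of their exon bases are shared in this way.

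**Figure D4:**
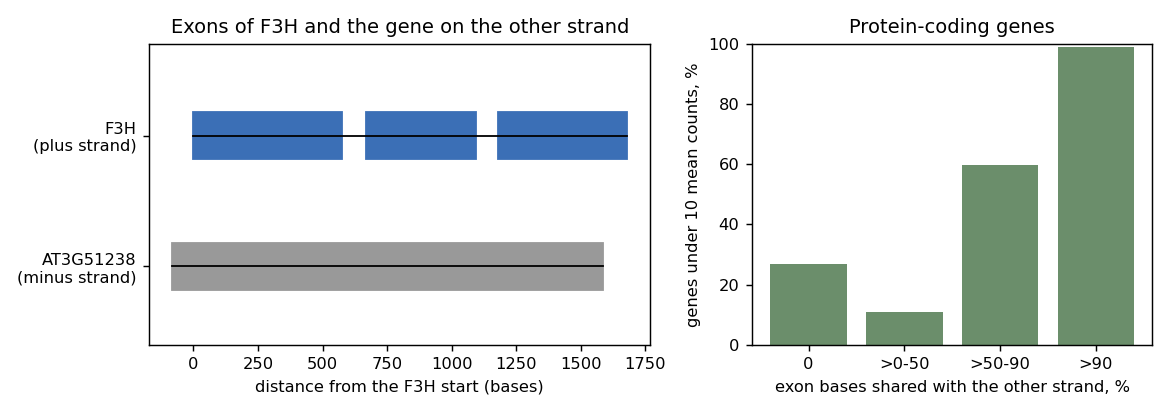
Left, exons of F3H and of the gene annotated on the other strand, by distance in bases from the F3H start. Right, percent of protein-coding genes with a mean under 10 counts, by the share of their exon bases that lies under a gene on the other strand: 26.8%, 10.9%, 59.9% and 98.9% from no overlap to over 90%.

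Ordered by mean FPKM over the 6 libraries, the 9 tested members ran CHS, FLS1, CHI, F3'H, MYB111, MYB12, MYB11, LDOX and DFR, with F3H left out because its counts are not read as a level. The place of LDOX depended on genotype: its mean lay below that of MYB11 in the wild type (2.72 against 5.34 FPKM) and above it in naa50-1 (9.14 against 6.78 FPKM). Neighbours in this order had separate ranges in both genotypes, except CHI and F3'H, which overlapped in the wild type only, and MYB11 with LDOX and LDOX with DFR, which overlapped in both. The highest library exceeded the lowest 28.1 times for DFR and 7.58 times for LDOX. For the other 7 tested members this ratio lay between 1.36 (CHI) and 2.46 (MYB11). Libraries of a genotype also differed from each other in a shared direction: wild type replicate 3 was the highest of its genotype for 8 of 9 members, and naa50-1 replicate 3 was the lowest of its genotype for 8 of 9. The same count over all tested genes was not made, so this is not read as particular to the members.

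The steps around the core pathway were read from lists of named genes. Of 9 genes for entry into phenylpropanoid metabolism, PAL3 fell and 0 rose by edgeR, DESeq2 or limma-voom. Among all tested genes edgeR called 5.59% lower, so 1 call among 9 genes is not read as a trait of the list. PAL3, a phenylalanine ammonia-lyase of low level, measured 7.30, 6.77 and 5.83 FPKM in the wild type and 3.92, 4.21 and 3.31 FPKM in naa50-1, without overlap (log2 fold change -0.80, adjusted p = 0.00705). The more abundant PAL1 gave 103, 79.5 and 117 FPKM against 111, 96.0 and 80.7 FPKM and did not pass. Of 8 genes that glycosylate or methylate flavonols, 6 were tested and 0 passed by edgeR, DESeq2 or limma-voom, although UGT78D1 had an unadjusted edgeR p under 0.05. The median log2 fold change of these 6 was -0.05. Among 7 relatives of CHI and FLS1, 3 were tested and 0 passed by the same tools or at an unadjusted p under 0.05. CHIL, a helper of CHS without isomerase activity, gave 181, 167 and 214 FPKM against 206, 189 and 165 FPKM.

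Of 8 genes that decorate or move anthocyanins, all were tested and 1, UGT79B1, rose. Among all tested genes 3.94% rose and 9.53% were called in either direction. The log2 fold changes of the 8 were above 0, with a median of 0.56, and the other 7 did not pass. At an unadjusted edgeR p under 0.05 there were 6 of the 8, 6 higher and 0 lower. The share of all tested genes under that unadjusted p was not computed, so these 6 are not read as a trait of the list. In all tested genes 48.4% had a log2 fold change above 0. UGT79B1, which adds xylose to anthocyanins, measured 0.394, 0.699 and 1.08 FPKM in the wild type and 2.69, 2.91 and 1.44 FPKM in naa50-1, without overlap (log2 fold change 1.69, SE 0.41, adjusted p = 0.0294). Leaving out wild type replicate 1 (adjusted p = 0.0846) or 2 (0.0800), or naa50-1 replicate 1 (0.0820) or 2 (0.0913), ended its call. The malonyltransferase gene 5MAT had 0.374, 0.884 and 0.876 FPKM against 2.60, 2.84 and 1.06 FPKM and missed the threshold (log2 fold change 1.60, adjusted p = 0.0577). SCPL10, whose product acylates anthocyanins, also missed it (log2 fold change 0.50, adjusted p = 0.0503). DESeq2 called these 3 genes, and limma-voom called UGT79B1 alone. The acyltransferase genes 3AT1 and 3AT2 share 96.6% of 1244 bases, so reads may be split between them. Of 4 proanthocyanidin genes, 2 were tested and 0 passed by edgeR, DESeq2 or limma-voom or at an unadjusted p under 0.05. BAN, which marks proanthocyanidin synthesis in the seed coat, was between 0 and 0.349 FPKM.

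**Figure D5:**
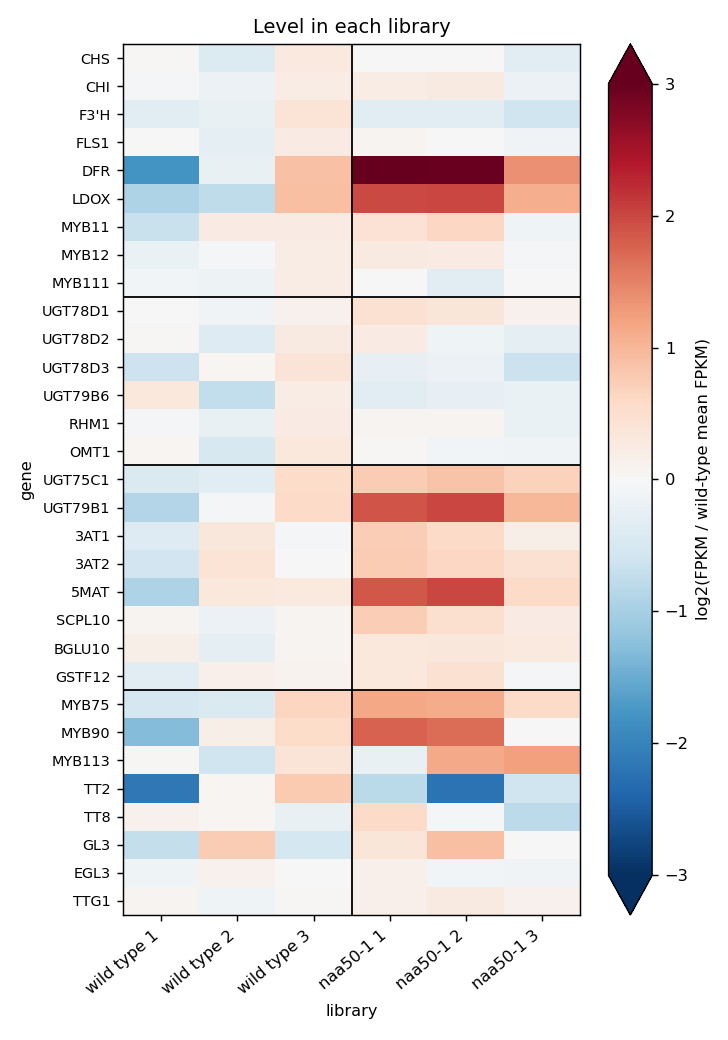
Log2 of the FPKM in each library over the wild-type mean, by colour, for the tested members and, below the lines, the tested genes of flavonol decoration, anthocyanin decoration and the MYB, bHLH and TTG1 activators. DFR, LDOX, UGT79B1, 5MAT and MYB90 are darkest red in naa50-1 replicates 1 and 2 and paler in replicate 3.

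Activators of the MYB, bHLH and TTG1 complexes gave 0 calls among 8 tested of 9 genes by edgeR, DESeq2 or limma-voom. An unadjusted edgeR p under 0.05 was seen for 2 of them, MYB75 and MYB90. The share of all tested genes under that p was not computed, so this count is not read as a trait of the list. MYB90, an activator of anthocyanin genes, measured 0.700, 1.97 and 2.54 FPKM in the wild type and 5.87, 5.55 and 1.74 FPKM in naa50-1. Its groups overlapped, because naa50-1 replicate 3 lay below a pair of wild-type libraries (log2 fold change 1.33, adjusted p = 0.191). MYB90 shares 96.9% of 131 bases with MYB114. The bHLH gene TT8 was at 0.999, 0.960 and 0.786 FPKM against 1.37, 0.894 and 0.533 FPKM. Of 9 repressors, SPL9, which interferes with the activating complex, fell from 73.9, 65.6 and 80.4 FPKM to 54.0, 56.4 and 53.6 FPKM (log2 fold change -0.43, adjusted p = 0.0301). That call was lost without each library in turn except wild type replicate 2, with adjusted p from 0.0762 to 0.120. LBD39, a nitrogen-responsive repressor, was at 7.76, 8.93 and 8.49 FPKM against 6.22, 2.54 and 5.36 FPKM and passed in DESeq2 only. Among 6 further regulators of flavonols, MYB24, a stamen factor, fell from 13.3, 9.24 and 15.1 FPKM to 4.36, 5.54 and 6.23 FPKM (log2 fold change -1.22, adjusted p = 0.00544). AT5G40348 on the other strand shares 468 of the 1005 exon bases of MYB24. By edgeR, SPL9 was the 1 repressor and MYB24 the 1 further regulator called, both lower, against 5.59% of all tested genes called lower. A single call in lists of this size is not read as a trait of the list.

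Likeness of profile was measured as the root mean square difference of centred log2 CPM (counts scaled by library size) over the 6 libraries. Among 16236 genes, those nearest to CHS were MUR1, AT5G19060, PAL1, IPS1 and ECT5, with differences of 0.0529 to 0.0761. FLS1 was 7th, the flavonol genes RHM1, OMT1 and UGT78D2 were 14th, 16th and 32nd, CHIL was 82nd and CHI 231st. The other tested members lay from 2143rd to 15991st. The other tested flavonol decoration genes lay from 3794th to 12354th, and another relative of CHI and FLS1 was 12536th. Nearest to MYB12 were GSTU13, PROT2, AT2G44600, AT5G23550 and FQR1, and CHI was 15th. The other tested members lay from 733rd to 15969th in likeness to MYB12. The same measure for DFR, chosen after its values were seen, gave WRKY28, AT2G32030, DREB2E, AT5G36925 and PER37 as the nearest of 21195 genes, with differences of 0.392 to 0.509. The minimum mean of 5 CPM used for CHS and MYB12 was not applied here. These 5 genes lay near the floor, at 0 to 0.450 FPKM in the wild type and 0.468 to 1.98 FPKM in naa50-1. LDOX was 8th, UGT79B1 18th, 5MAT 29th and MYB90 38th, while CHS was 7764th. The other anthocyanin decoration genes lay from 518th to 2968th, and the other tested activators from 312th to 19331st. The named near genes are thus not read as a trait of their lists.

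Cell type markers were read beside these results, since in whole buds fewer cells of a type and less RNA per cell cannot be told apart. All 6 mature pollen markers fell, their summed level lying between 491 and 710 FPKM in the wild type and between 3.68 and 4.65 FPKM in naa50-1, with none at 0. Of 8 tapetum markers, 0 passed by edgeR, DESeq2 or limma-voom or at an unadjusted p under 0.05, and they summed to between 211 and 459 FPKM in the wild type and between 336 and 381 FPKM in naa50-1. Neither petal and stamen marker passed, and they summed to between 275 and 389.9 FPKM against between 328 and 448 FPKM. CRC, a carpel gene, was the 1 of 4 flower markers that fell by edgeR, DESeq2 and limma-voom, and the 4 summed to between 360 and 492 FPKM against between 403 and 554 FPKM. LHCB6 was the 1 of 4 green tissue markers that fell by edgeR and by limma-voom, and DESeq2 called LHCB1.3 lower as well. LHCB1.3 had an unadjusted edgeR p under 0.05, and its groups did not overlap. All 4 had a log2 fold change below 0, and they summed to between 10738 and 14160.3 FPKM against between 8753 and 10294 FPKM. The part of these shifts in the DFR and LDOX values was not tested.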

How the data were processed

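RNA was sequenced from closed buds, 3 libraries per genotype, grouped and numbered by the labels. The submitters' processing notes name HISAT2 2.0.5 and the build TAIR10. Counter, annotation release and strand setting: not given in the sources used here. The authors deposited raw counts per gene for 33037 features, 204 of them without an annotated gene and holding 0.187% to 0.244% of the counts of a library. The FPKM deposited by the authors equal, in each library, the count divided by gene length and by a size factor (median of ratios), up to 1 constant common to the libraries. The authors' deposited table holds, per the file headers, log2 fold changes with their p-values, unadjusted and adjusted. Bounds equalled TAIR10.1 for 99.5% of 32548 matched genes.

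Counts were scaled by TMM, filtered by filterByExpr and tested with edgeR 4.0.16 (quasi-likelihood, genotype alone, Benjamini-Hochberg, threshold 0.05) in R 4.3.3. Standard errors are the absolute log2 fold change over the square root of F, with 95% intervals. No library was a duplicate of another: chi-square per degree of freedom between replicates was 13.0 to 28.5. On simulated counts for this comparison (20903 genes), 69, 73 and 58 genes were changed 1.5-, 2- and 4-fold. The test recovered 23.2%, 59.2% and 98.2% of them, with 16 false among 130 calls. The simulation was a single draw, with levels and spread taken from the wild-type libraries. The alternatives tried were RLE scaling, library totals, no filter, DESeq2 1.42.0, limma 3.58.1 (voom, and log2 of FPKM plus 1 or 0.1), the replicate block and each library left out.

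Named were all members, up to 3 genes with the smallest p past the threshold per list, and the 5 genes (mean at least 5 CPM) nearest in profile to CHS and to MYB12; PAL1, CHIL, UGT78D1, 5MAT, SCPL10, 3AT1, 3AT2, BAN, MYB75, MYB90, TT8, LBD39 and the profile of DFR were added after their values were seen. Members and lists were chosen with earlier results of these data known. Near copies were sought with blastn at 95% identity over 100 bases.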

Additional observations from a re-analysis of the deposited data

How the results depend on the processing

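Over 14 alternative settings, the genes called in all ran from 1645 to 2395. DFR kept its direction in all 14 (log2 fold change 1.81 to 3.40) and its call in 10, and LDOX kept its direction in all 14 (1.44 to 2.58) and its call in 9. The members called were 2 as reported, with other scalings, without the filter, in DESeq2 and in both FPKM fits, 1 (LDOX) in limma-voom, where DFR had an adjusted p of 0.0531, and from 0 to 2 with 1 library left out. With the replicate number as a block, 0 members were called (DFR adjusted p = 0.0600, LDOX 0.0694) and 1969 genes in all, and UGT79B1 (0.0680) and SPL9 (0.0555) also lost their calls. Same-numbered libraries correlated at -0.0002, 0.0585 and 0.102 in their deviations from the group means. Differently numbered libraries correlated at -0.155 to 0.0784, a range that overlaps these values although the highest value is of the libraries numbered 3. The shared number is therefore neither shown to pair the libraries nor shown not to. The difference between genotypes in the mean log2 ratio to FLS1 (naa50-1 minus wild type) stayed above 0, at 2.10 to 3.31 for DFR and 1.59 to 2.38 for LDOX, with an exact p of 0.2 with 1 library left out and 0.25 in pairs, the smallest possible in each case. The uncalled FLS1, CHS and MYB111 changed sign in some settings. FLS1 was at 0.026 with library totals, 0.0064 in limma-voom, 0.0115 in both FPKM fits and 0.0075 with the replicate block, and from -0.13 to 0.14 with 1 library left out. With 1 library left out CHS ran from -0.26 to 0.086 and MYB111 from -0.17 to 0.018. The anthocyanin decoration genes called ranged from 0 to 3, all 8 being above 0 in every setting, while PAL3 and MYB24 were called in all 14. DFR rests on few reads, 9 counts in wild type replicate 1, and F3H on 20 counts in all. In a simulation with 3 libraries per genotype, changes of 1.5- and 2-fold were often missed, with 23.2% and 59.2% recovered. Of its 130 calls 16 were false, a larger share than the threshold of 0.05. The simulation changed far fewer genes than the 2021 called here, so both shares may differ in the measured data.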
